A study of Mus musculus with 194 samples.

Results

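Immediate early genes are transcribed within minutes of neuronal firing, without new protein synthesis, after calcium entry activates kinases and the factors CREB, SRF and MEF2 that already sit on their promoters and enhancers. Some of them encode transcription factors that switch on later genes, and others encode proteins that act directly at the synapse. Their regulatory DNA is accessible before stimulation, and binding sites for general factors such as SP1 lie in many of their GC-rich promoters. SP1 is a ubiquitous zinc-finger activator that binds the GC box.

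The 10 genes described here were chosen by name as known members of this class: Fos, Fosb and Junb of the AP-1 family, Egr1 and Egr3 of the zinc-finger Egr family, the nuclear receptors Nr4a1 and Nr4a2, the neuronal factor Npas4, and the effectors Arc and Bdnf. They are 10 of 21631 protein-coding loci counted, where a locus is the gene body with 10 kb on each side in build GRCm38 (mm10). Of 21931733 insertions in 47 tables, 12187 lay in these 10 loci.

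The study records where a transcription factor or a free transposase has been in the genome of living mouse tissue. A transposase carried by AAV inserts a reporter transposon at the sequence TTAA, and each insertion is read out later by sequencing. The 47 tables hold 46 animals in 11 groups and the mouse neuroblastoma line N2a, for which 3 experiments share a single table. Virus was given at postnatal day 0 to 1 (P0-1).

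The group C57bl6J (n = 2) is the plain inbred strain. Syn1Cre and Syn1CreNeg (n = 6 each) are Cre-positive and Cre-negative animals of a line with Cre under the neuronal synapsin 1 promoter. GFAPCre and GFAPCreNeg (n = 6 each) are the same for a line with Cre under the astrocyte GFAP promoter. Frontflip_GFAPCre and Frontflip_GFAPCreNeg (n = 3 each) use another construct, named Frontflip, in that line. Rbp4Cre_TRAP (n = 4) is RNA from ribosome pull-down of whole forebrain in a line with Cre in layer 5 neurons. BrokenHeart (n = 3) is read from cortical DNA by its protocol, although its molecule label says RNA, and every other animal group from RNA. Syn1Cre_SP1_P10 (n = 3) and Syn1Cre_SP1_P28 (n = 4) carry the SP1 label in the Syn1Cre line and are named for postnatal days 10 and 28. How the SP1 construct and the viral cassettes were built is not in the labels, which also give no collection age for the groups without SP1. All animal groups share the AAV injection.

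The level of a locus is its number of insertions per 1000000 insertions of that table, written IPM. It counts places reached by the transposase, not transcripts of the gene. Because each cortex is a mixture of cells, fewer infected cells of a type and fewer insertions per cell cannot be told apart. Tables held from 2341 insertions in the shallowest Frontflip_GFAPCreNeg animal to 2186743 in the deeper C57bl6J animal. Syn1Cre tables held 443158 to 1364948, SP1 P10 animals 86842 to 95331 and SP1 P28 animals 108965 to 577609. The 3 Frontflip_GFAPCreNeg animals had only 7 insertions in all 10 loci together, so they are left out of what follows. Summed neuron marker levels ran from 772 to 1089 IPM in Syn1Cre and from 582 to 874 in Syn1CreNeg. Summed astrocyte marker levels ran from 563 to 1859 in Syn1Cre and from 1962 to 2652 in Syn1CreNeg, so Syn1Cre tables were not free of astrocyte marker insertions. No labels say that replicate animals shared a litter, and the tests measure the spread between animals.

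The starts of these genes differ in the letters that matter for this assay, so 5 promoters are shown. Fos and Junb had levels that separated the SP1 from the Syn1Cre animals, and Fosb is their AP-1 relative. Nr4a2 was lower in the SP1 P28 animals, and the Bdnf start numbered 4 had SP1 insertions inside the window. The Bdnf start numbered 3 had them too and is not shown. Each promoter shown runs from 250 bases before to 50 bases after the start, 5′ to 3′ on the gene's own strand, from RefSeq on GRCm38.p6. Capitals mark the GC box (GGGCGG or its reverse complement CCGCCC) and the transposon target TTAA, and overlapping GC boxes are counted separately.
Fos (chr12:85473640-85473939, plus strand): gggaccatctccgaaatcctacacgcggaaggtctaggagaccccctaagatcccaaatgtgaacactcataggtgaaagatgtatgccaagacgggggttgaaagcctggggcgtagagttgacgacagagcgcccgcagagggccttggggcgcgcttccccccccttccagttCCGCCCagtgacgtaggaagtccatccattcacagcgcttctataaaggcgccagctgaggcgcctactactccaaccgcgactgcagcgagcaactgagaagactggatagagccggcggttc
Fosb (chr7:19309996-19310295, minus strand): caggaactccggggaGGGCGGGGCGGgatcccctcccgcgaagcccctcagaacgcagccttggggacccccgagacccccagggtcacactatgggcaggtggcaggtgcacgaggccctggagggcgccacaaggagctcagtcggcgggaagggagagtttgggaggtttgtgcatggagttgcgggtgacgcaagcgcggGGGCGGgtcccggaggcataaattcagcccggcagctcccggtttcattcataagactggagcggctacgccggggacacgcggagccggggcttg
Junb (chr8:84978699-84978998, minus strand): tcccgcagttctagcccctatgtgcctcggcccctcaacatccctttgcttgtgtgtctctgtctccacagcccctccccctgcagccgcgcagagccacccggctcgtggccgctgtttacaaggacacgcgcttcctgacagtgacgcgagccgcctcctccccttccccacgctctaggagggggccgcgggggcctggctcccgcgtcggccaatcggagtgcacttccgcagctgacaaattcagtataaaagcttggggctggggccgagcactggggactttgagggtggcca
Nr4a2 (chr2:57123954-57124253, minus strand): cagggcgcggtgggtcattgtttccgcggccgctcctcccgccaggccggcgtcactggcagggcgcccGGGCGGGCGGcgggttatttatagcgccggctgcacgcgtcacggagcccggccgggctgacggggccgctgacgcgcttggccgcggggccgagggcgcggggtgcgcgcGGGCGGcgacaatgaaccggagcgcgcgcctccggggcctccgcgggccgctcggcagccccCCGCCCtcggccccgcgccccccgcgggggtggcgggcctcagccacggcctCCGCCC
Bdnf start 4 (chr2:109692777-109693076, plus strand): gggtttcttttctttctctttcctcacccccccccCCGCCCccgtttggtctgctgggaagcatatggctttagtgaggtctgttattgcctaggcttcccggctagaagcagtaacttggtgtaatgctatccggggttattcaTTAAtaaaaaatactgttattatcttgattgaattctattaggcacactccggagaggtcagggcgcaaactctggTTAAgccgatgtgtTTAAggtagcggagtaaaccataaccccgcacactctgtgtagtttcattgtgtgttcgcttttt

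The Fos window holds 1 GC box, Fosb 3, Nr4a2 5, Bdnf start 4 1, and Junb none. None of the Fos, Fosb, Junb and Nr4a2 windows holds a TTAA, so no insertion could be placed in them, and 0 was counted there in the SP1 and the unfused tables alike. The Bdnf start 4 window holds 3 TTAA and had 8 insertions in the SP1 animals and 27 in the 26 unfused RNA-read animals of Syn1Cre, Syn1CreNeg, GFAPCre, GFAPCreNeg and C57bl6J. The window of Bdnf start 3 holds 1 TTAA and no GC box. It had 8 insertions in the SP1 animals too, and 71 in the unfused animals. Among 32851 RefSeq promoter windows of the same length, 52.4% held a TTAA and 35.7% a GC box on either strand. Of the other members in the table, Npas4 had 1 GC box and Nr4a1 had 3 with 1 TTAA. Arc, Egr1 and Egr3 had no entry in the table. Such matches describe the letters only.

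The members were not equally marked by the free transposase. In Syn1Cre the Nr4a2 locus, whose product is needed for dopamine neuron development, had 3.82 IPM per kb and lay above 99.5% of all loci. Egr1, an activity-induced zinc-finger factor used widely as a marker of neuronal firing, had 2.90 and lay above 99.1%. Fosb, a partner of Jun proteins in AP-1, had 2.07 and lay above 98.0%. Arc, a capsid-like protein that controls AMPA receptor uptake at synapses, had 0.57 and lay above 71.6%. Npas4, a factor that adjusts inhibitory synapses, had 0.68 and lay above 78.0%. The median of all loci in that group was 0.32 IPM per kb. The other 5 members lay between 93.9% and 96.7%. Arc and Npas4 were therefore the sparse members, and with Frontflip_GFAPCreNeg aside they stayed under 1 IPM per kb in every RNA-read group without SP1.

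**Figure D1:**
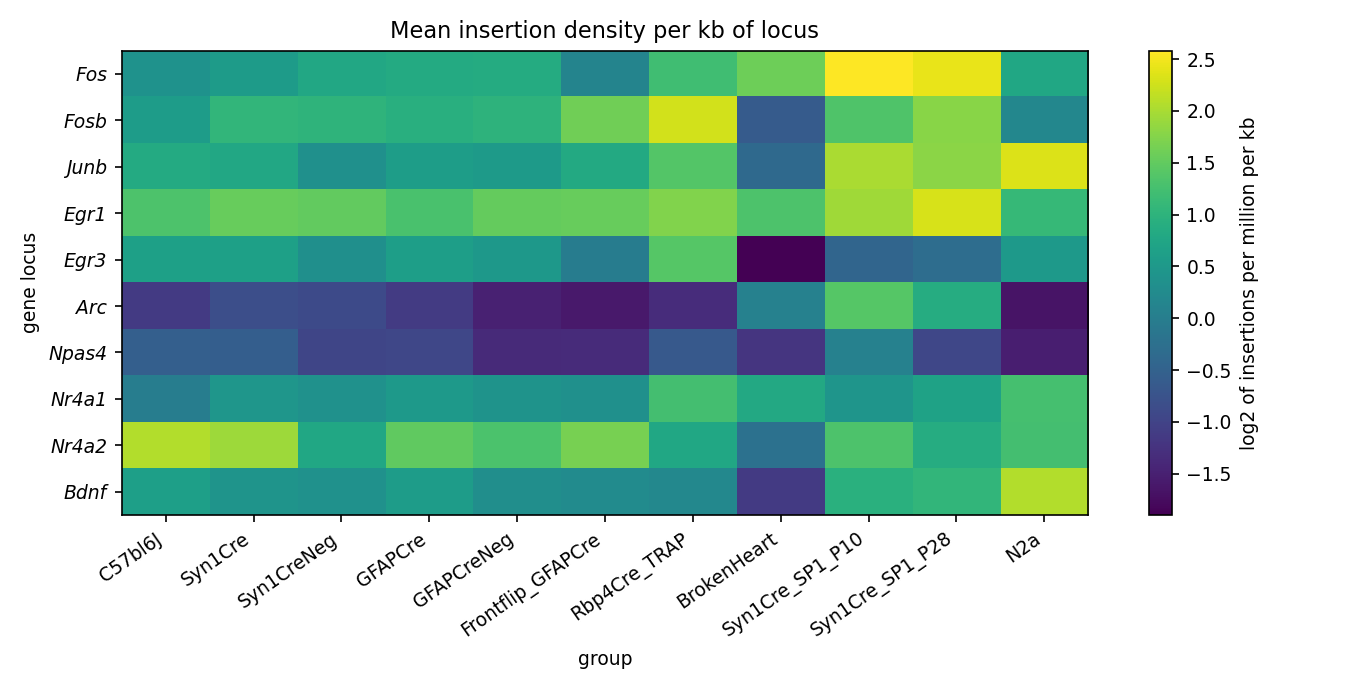
Mean IPM per kb of locus (colour, log2 scale) for each gene (rows) in the 10 groups of animals with enough insertions and in N2a (columns). Nr4a2 is bright in C57bl6J (4.2) and Syn1Cre (3.82) and darker in Syn1CreNeg (1.70), and the row of Fos is brightest in the SP1 columns (5.98 at P10 and 5.43 at P28).

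Summed over the 10 loci, IPM were 572 ± 49.3 (SD, n = 6) in Syn1Cre, 799 ± 56.7 (n = 3) in SP1 P10 and 783 ± 8.82 (n = 4) in SP1 P28. The lowest SP1 animal, at 758, lay above the highest Syn1Cre animal, at 647. High sums were not limited to SP1: N2a stood at 780, Rbp4Cre_TRAP animals at 579 to 738 and Frontflip_GFAPCre animals at 434 to 635. No animal of Syn1CreNeg, GFAPCre or GFAPCreNeg exceeded 589. Of the groups kept, BrokenHeart had the lowest mean, 350 ± 12.4 (n = 3).

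At P28, the loci of the AP-1 genes Fos, Fosb and Junb and of Egr1, Arc and Bdnf were higher in the SP1 animals than in Syn1Cre, and Nr4a2 was lower. At P10, Fos, Junb, Arc and Bdnf were higher. A higher level was not always a higher rank in IPM per kb among all loci. From Syn1Cre to SP1 P28, Fos went from above 95.13% of loci to above 98.53%, and Arc from 71.58% to 88.31%. Fosb fell from 97.96% to 95.92%, Junb from 96.65% to 96.01%, Egr1 from 99.14% to 98.15% and Bdnf from 93.93% to 90.21%. At P10 Fos stood at 98.2%, Arc at 92.15%, Junb at 96.1% and Bdnf at 88.3%. Of the 10 loci, 7 passed edgeR's quasi-likelihood test in SP1 P28 against Syn1Cre (Benjamini-Hochberg over all loci, threshold 0.05), 6 higher and 1 lower. That split of the members was 3 higher and 3 lower with scaling factors taken over all loci tested, and 2 and 2 with DESeq2. Over all loci in that comparison, 36.4% passed, 27.0% higher and 9.40% lower. At P10, 4 of 10 passed against Syn1Cre, all higher, beside 28% of all loci, 23.9% higher and 4.12% lower. With either of those scalings the P10 split was 2 higher and 2 lower, the lower members being Egr3 and Nr4a2. Both comparisons use the same 6 Syn1Cre animals. The median log2 fold change of the 10 loci was 0.54 at P28 and 0.68 at P10, against 0.14 and 0.35 over all loci. With factors over all loci the members' median was 0.19 at P28 and -0.17 at P10, and with DESeq2 0.14 and -0.12, so its sign at P10 turned. Under the other scalings tried, the median over all loci moved to between -0.27 and 0.24 at P28 and between -0.50 and 0.14 at P10. Higher calls made up 74.2% of all calls at P28 and 85.3% at P10, and 49.8% and 42.9% with scaling factors taken over all loci tested. With those factors 5 members turned sign at P10: Fosb (-0.31), Egr1 (-0.22), Nr4a1 (-0.65) and Npas4 (-0.04), none of which had passed, and Bdnf (-0.13), which lost its call. SP1 and Syn1Cre animals were never sequenced in one pool, so SP1 and pool cannot be told apart. The labels give no collection age for Syn1Cre, so SP1 and age cannot be told apart either. The SP1 tables were also shallower. Summed neuron marker levels were 1290 to 1490 at P10 and 1227 to 1294 at P28, above the 772 to 1089 of Syn1Cre. Summed astrocyte marker levels were 926 to 2059 at P28 (mean 1625) and 808 to 1081 at P10 (mean 948), against 563 to 1859 (mean 879) in Syn1Cre. At P28, 3 of 8 neuron and 3 of 7 astrocyte markers passed as higher, and at P10 4 and 2, with 1 neuron marker lower. The part of these markers in the results was not tested.

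Fos, the inducible partner of Jun proteins, had the smallest adjusted p of the 10 members at both ages. Its 6 Syn1Cre animals spanned 30.6 to 36.6 IPM with a median of 34.8. The 3 SP1 P10 animals had 150, 134 and 136, and the 4 SP1 P28 animals 138, 128, 158 and 83.1. Every SP1 animal lay above every Syn1Cre animal. edgeR gave a log2 value of 2.22 (SE 0.29, adjusted p = 3.28e-08) at P10 and 1.66 (SE 0.20, adjusted p = 1.48e-08) at P28. It kept its sign and its call under the 19 alternatives that could be run at P28, from 1.30 to 2.86, and the 18 at P10, from 1.36 to 2.25.

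Most of the Fos insertions of SP1 animals lay downstream of the gene. The bin 12 to 13 kb from the start held 97 of the 158 SP1 insertions, or 71.6 IPM, against 11.8 IPM in Syn1Cre. The bin just before the start held 6 SP1 insertions, or 4.43 IPM, against 1.44 in Syn1Cre. Within the downstream bin, the position chr12:85486464, 9.19 kb beyond the gene's end, was hit 42 times in 7 of 7 SP1 animals and made up 26.6% of the locus. The same position was also the most hit in the unfused animals, with 97 insertions in 24 of 26. Without that position the levels were 99.1 ± 6.47 (SD, n = 3) at P10, 87.5 ± 26.4 (n = 4) at P28 and 29.6 ± 3.79 (n = 6) in Syn1Cre, so the groups still did not overlap. Only 5.26% of P10 and 2.5% of P28 insertions fell in the Fos gene body.

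Junb, which dimerises with Fos proteins, ran from 27.1 to 49.2 IPM in Syn1Cre, with a median of 37.6. SP1 animals had 80.6, 66.8 and 115 at P10 and 69.0, 55.1, 97.2 and 83.1 at P28, with no overlap. In edgeR the log2 fold change was 1.44 (SE 0.36, adjusted p = 0.00138) at P10 and 0.97 (SE 0.22, adjusted p = 0.000416) at P28. The share of Junb insertions inside the gene body was 14.0% in Syn1Cre, 62.5% at P10 and 47.7% at P28. The position chr8:84977720, in the body 1.03 kb from the start, was hit 16 times in 7 of 7 SP1 animals and 48 times in 21 of 26 unfused animals. Counted over gene bodies alone, the log2 fold change was 3.84 at P10 and 3.01 at P28. The locus calls were lost with DESeq2 (adjusted p = 0.0760 at P28 and 0.167 at P10) and with insertions of at least 2 reads, the P28 call also after thinning to equal depth, and the P10 call also with scaling factors over all loci tested and without P10 animal 3. The Junb locus overlaps those of Rnaseh2a and Prdx2, enzymes of nucleic acid repair and peroxide removal, which rose by 1.70 and 1.75 (log2) at P28 and share insertions with it.

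Fosb, a close relative of Fos that accumulates with repeated activity, was less even. Its SP1 P10 animals had 34.5, 122 and 52.5 IPM, and its P28 animals 77.6, 138, 79.0 and 83.1, against 43.2 to 79.7 in Syn1Cre. The groups overlapped. Only P28 passed, with a log2 difference of 0.57 (SE 0.21, edgeR adjusted p = 0.0341) that did not pass under 10 of 20 alternatives. At P10 the value was 0.54 (SE 0.39, edgeR adjusted p = 0.344), and it passed counting each position once (1.27, adjusted p = 0.0405) and over gene bodies (4.42, adjusted p = 0.000532). Inside the gene body the contrast was larger: 6 of 19 P10 insertions and 19 of 94 P28 insertions lay there, against 7 of 303 in Syn1Cre. Rtn2, a reticulon whose locus overlaps that of Fosb, rose by 1.38 at P28.

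**Figure D2:**
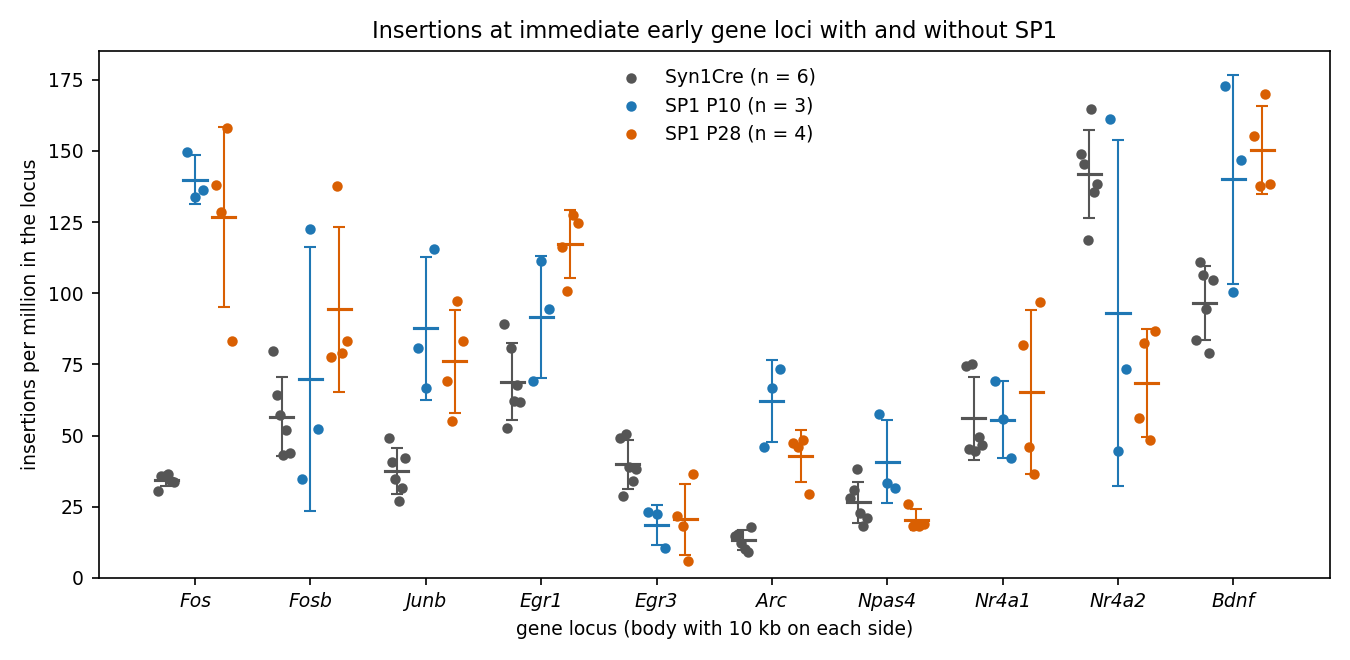
IPM in each of the 10 loci for 6 Syn1Cre animals (grey), 3 SP1 P10 animals (blue) and 4 SP1 P28 animals (orange); points are animals, bars the mean ± SD. All SP1 points of Fos (83.1 to 158) lie above all Syn1Cre points (30.6 to 36.6), and the Nr4a2 points of SP1 P28 (48.6 to 86.6) lie below those of Syn1Cre (119 to 165).

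The Egr family split. Egr1 had 52.5 to 89.0 IPM in Syn1Cre, 69.1, 111 and 94.4 at P10, and 116, 101, 128 and 125 at P28. Its P28 animals lay above all Syn1Cre animals, with a log2 value of 0.71 (SE 0.18, edgeR adjusted p = 0.00182), while P10, at 0.64 (SE 0.32, adjusted p = 0.145), overlapped them and passed only counting each position once (1.26, adjusted p = 0.00835). The P28 call was lost in 5 of 20 alternatives. Reep2, a membrane-shaping protein whose locus overlaps that of Egr1, rose by 1.55 at P28 and 1.98 at P10. Egr3, a factor for muscle spindles and sympathetic neurons, had lower values: 28.6 to 50.4 in Syn1Cre, 23.0, 22.3 and 10.5 at P10, and 21.6, 18.4, 6.08 and 36.4 at P28. These locus values did not pass, at -0.91 (SE 0.57, edgeR adjusted p = 0.269) and -0.72 (SE 0.30, adjusted p = 0.0587), although the P10 animals lay below all Syn1Cre animals. Egr3 passed as lower under 11 of 20 alternatives at P28, among them DESeq2, factors over all loci, at least 2 reads, gene bodies and the fits without any 1 of Syn1Cre animals 2, 4, 5 and 6 or P28 animals 2 and 4, and under 3 of 19 at P10. Its value was below 0 in all of them, from -1.48 to -0.19 at P28 and from -2.58 to -0.59 at P10.

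The place of the Egr3 insertions also differed, on few insertions with SP1. In Syn1Cre 175 of 223 (78.5%) lay in the gene body, against 1 of 5 at P10 and 11 of 29 at P28. P28 animal 4 alone held 21 of those 29 and 9 of the 11 in the body. Within 1 kb of the gene's ends, which were both taken because no source used here gives its strand, Syn1Cre had 138 insertions, P10 1 and P28 6. Of those 6, 5 were in P28 animal 4. All lay at the end of higher coordinate, since the bins beside the other end held 0 in Syn1Cre and SP1 animals. The window of both ends was lower at P28, by -2.24 (SE 0.49, edgeR adjusted p = 1.93e-05), and at P10, by -2.49 (SE 1.04, adjusted p = 0.0443). The P10 call rests on 1 insertion and was lost without Syn1Cre animal 3, without P10 animal 1 and without P10 animal 2. The position chr14:70081985 in the body, the most hit in unfused animals, had 92 insertions in 23 of 26 of them and 1 in SP1 animals. The position chr14:70074874, 2.44 kb outside the body and the most hit in SP1 animals, had 10 in 3 of them. It had 6 in 5 unfused animals. These positions were picked by such counts, so their contrast is a description only.

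Of the start windows (1 kb to each side of a start), 6 members could be tested at P28 and 5 at P10. For Egr1 and Egr3 the window takes in both gene ends, so it is not that of a start alone. Passing were 2 at P28, Egr3 lower (at its gene ends) and Bdnf higher, beside 50.8% of all windows (49.4% higher and 1.40% lower). At P10, 1 passed, Egr3, beside 38.2% of all windows (37.9% higher and 0.330% lower). The median window of all genes was higher in SP1 by 1.18 at P28 and 1.30 at P10 (log2), while the median of the 6 members tested at P28 was 0.14. Fos, with 1.47 (SE 0.87, edgeR adjusted p = 0.151) at P28, did not pass. Windows of 2 kb gave 5 calls at P28 and 4 at P10, with Fosb at 3.86 and 4.78 and Junb at 2.35 and 3.12 among them. The share of all windows called at 2 kb is not given here. At 1 kb it was 50.8% and 38.2%, so these calls are not shown to be particular to the members.

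Nr4a1 and Nr4a2 encode orphan nuclear receptors induced by activity. Nr4a1 differed by less than the spread between animals: 44.7 to 75.0 IPM in Syn1Cre, 69.1, 55.7 and 42.0 at P10, and 81.9, 45.9, 36.5 and 97.0 at P28. Its log2 values, 0.21 at P10 and 0.35 at P28, did not pass. It passed as higher at P28 counting each position once (0.86, edgeR adjusted p = 0.00596) and over gene bodies (1.48, adjusted p = 0.00985). Nr4a2 was lower with SP1 at P28. Syn1Cre animals ran from 119 to 165, and P28 animals had 56.1, 82.6, 48.6 and 86.6, with no overlap. edgeR gave a log2 difference of -1.09 (SE 0.20, adjusted p = 1.89e-05), and it passed in 20 of 20 alternatives, from -1.5 to -0.57. At P10 the animals had 161, 44.6 and 73.4 and gave -0.42 (SE 0.30, adjusted p = 0.336), which passed as lower with DESeq2 (-1.23), with scaling factors over all loci tested (-1.28), after thinning to equal depth (-0.98) and without P10 animal 1, the animal at 161 IPM (-1.11, edgeR adjusted p = 0.0268). No single position carried the Nr4a2 signal: the 105 SP1 insertions lay at 57 positions and the 2310 unfused insertions at 192.

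Npas4 had 18.1 to 38.1 IPM in Syn1Cre, 57.6, 33.4 and 31.5 at P10, and 25.9, 18.4, 18.2 and 19 at P28. It passed in neither comparison (0.82, SE 0.49, edgeR adjusted p = 0.240 at P10 and -0.48, SE 0.32, adjusted p = 0.262 at P28). With scaling factors over all loci tested, Npas4 passed as lower at P28 (-0.81, edgeR adjusted p = 0.0372) and stood at -0.04 at P10. These levels rest on 11 insertions at P10 and 22 at P28.

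Arc and Bdnf are effectors rather than nuclear factors. Arc ranged from 9.03 to 18 IPM in Syn1Cre and was 46.1, 66.8 and 73.4 at P10 and 47.4, 45.9, 48.6 and 29.4 at P28. All SP1 animals lay above all Syn1Cre animals. In edgeR the log2 fold change was 2.39 (SE 0.46, adjusted p = 4.55e-05) at P10 and 1.38 (SE 0.30, adjusted p = 0.000294) at P28.

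Much of the Arc gain was at a single position. Of 58 SP1 insertions in the locus, 40 (69.0%) were at chr15:74679237, 6.67 kb beyond the gene body, in 7 of 7 animals. Unfused animals had 62 there, 29.8% of their total, in 22 of 26. Without that position Arc stood at 7.21 ± 6.25 (SD, n = 3) at P10, 14.6 ± 4.09 (n = 4) at P28 and 9.31 ± 2.66 (n = 6) in Syn1Cre, and the groups overlapped. None of the Arc insertions of Syn1Cre, P10 or P28 lay in the gene body. Counting each position once, the Arc call was lost at P10 (edgeR adjusted p = 0.0660) and stayed at P28 (1.03, adjusted p = 0.0369). It was lost at P28 after thinning to equal depth (edgeR adjusted p = 0.0660).

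Bdnf encodes a neurotrophin transcribed from several alternative starts, of which the RefSeq table lists 7. Levels were 79.0 to 111 IPM in Syn1Cre, 173, 100 and 147 at P10, and 155, 138, 170 and 138 at P28. The P28 animals lay above all Syn1Cre animals and the P10 animals overlapped them. edgeR gave a log2 value of 0.51 (SE 0.17, adjusted p = 0.0150) at P28 and 0.73 (SE 0.26, adjusted p = 0.0324) at P10. Neither call is firm: P28 did not pass in 12 of 20 alternatives, and P10 turned to -0.13 with scaling factors over all loci tested and -0.08 with DESeq2.

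As with Arc, 1 position held much of the Bdnf gain. The position chr2:109678318, in the gene body 1.29 kb from the nearest start, was hit 47 times in 7 of 7 SP1 animals (23.9% of the locus) and 30 times in 18 of 26 unfused animals (1.55%). Without it Bdnf stood at 85.1 ± 41.1 (SD, n = 3) at P10, 113 ± 14.4 (n = 4) at P28 and 95.1 ± 13.2 (n = 6) in Syn1Cre, with overlap. The windows around the starts together rose at P28 by 0.80 (SE 0.29, edgeR adjusted p = 0.0141). That is less than the median of 1.18 over all start windows, of which 49.4% passed as higher. With scaling factors over all loci tested, no member window passed as higher. These single-position values were chosen from the SP1 tables and are given as a description. RNA was isolated separately from 10 parts of each cortex, and repeat insertions at a position within a part may be counted once.

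**Figure D3:**
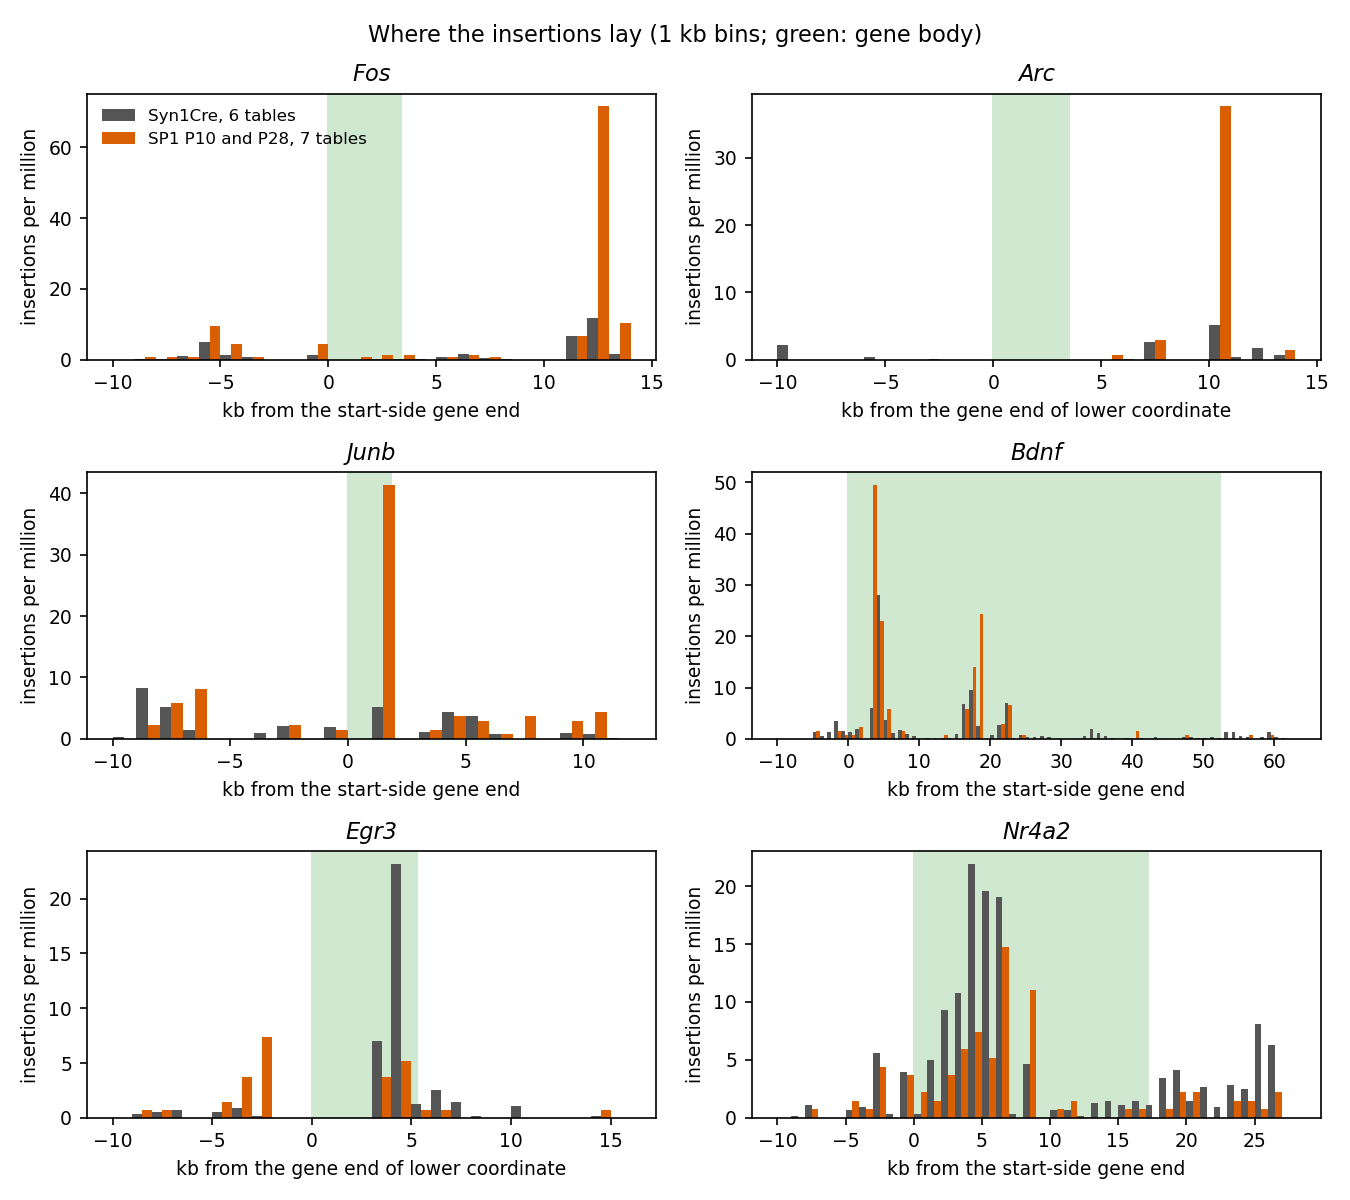
IPM in 1 kb bins along 6 loci (kilobases from the gene end shown on each axis) for the 6 Syn1Cre tables pooled (grey) and the 7 SP1 tables pooled (orange), with the gene body in green. The SP1 peaks of Fos (71.6 IPM) and Arc (37.6) stand beyond the gene, those of Junb (41.3) and Bdnf (49.4) inside it, and the Syn1Cre peaks of Egr3 (23.2) and Nr4a2 (21.9) inside the gene are taller than the SP1 bars beside them.

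Between the ages no member passed. In SP1 P28 against SP1 P10, 0 of 10 passed edgeR's test (0 at an unadjusted p under 0.05). DESeq2 called none either, but gave an adjusted p for only 2 of the 10. Of all loci, edgeR called 1.82% (1.25% higher and 0.576% lower). The log2 fold changes were Fos -0.17 (SE 0.29), Fosb 0.42 (SE 0.36), Junb -0.08 (SE 0.34), Egr1 0.46 (SE 0.31) and Egr3 0.54 (SE 0.71). Those of the others were Nr4a1 0.54 (SE 0.40), Nr4a2 -0.27 (SE 0.36), Npas4 -0.88 (SE 0.58), Arc -0.59 (SE 0.43) and Bdnf 0.17 (SE 0.28). Adjusted p-values ran from 0.530 for Npas4 to 0.966 for Junb. Npas4 was the member whose ages did not overlap, at 31.5 to 57.6 IPM at P10 and 18.2 to 25.9 at P28. These rest on 11 and 22 insertions, and the share of all loci without overlap is not given here. In a simulation of this comparison with loci changed by 3-fold, 61% were recovered, so changes of that size can be missed at this depth. Its changed loci were drawn from those at or above the median count, with a common spread, so recovery at sparser loci is not shown. Of the start windows only that of Bdnf could be tested, at 0.32 (SE 0.45, edgeR adjusted p = 0.841), beside 0.0149% of all windows called.

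**Figure D4:**
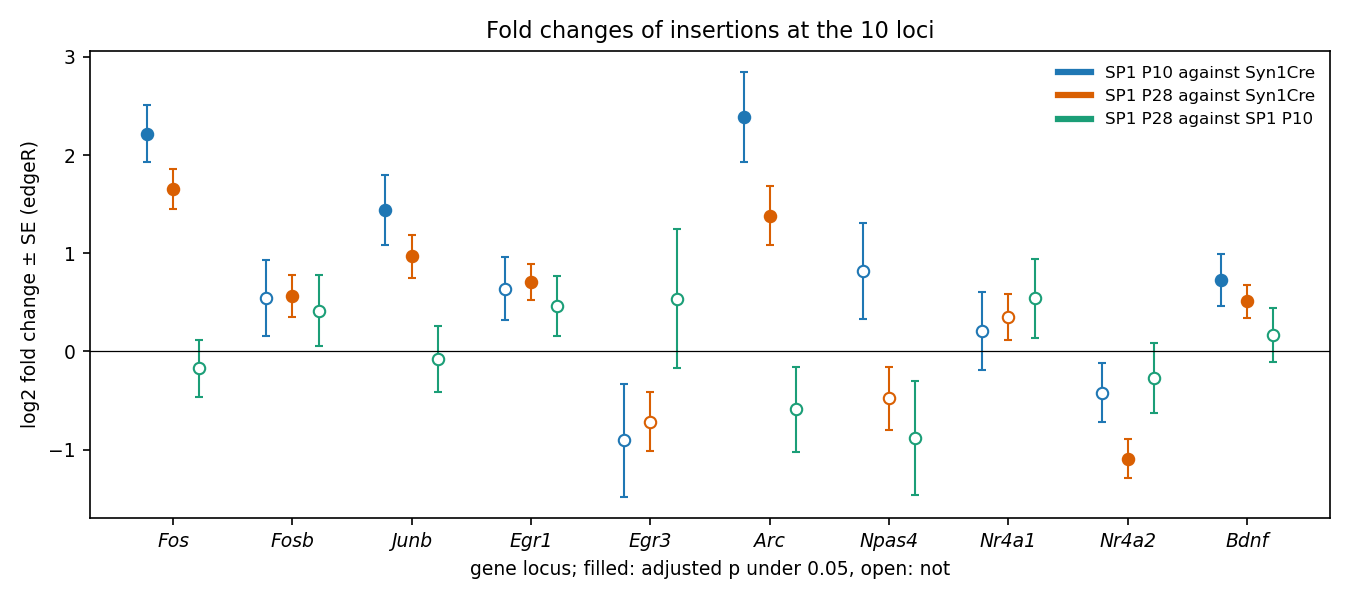
Log2 fold change ± SE from edgeR (vertical axis) for each locus (horizontal axis) in SP1 P10 against Syn1Cre (blue), SP1 P28 against Syn1Cre (orange) and SP1 P28 against SP1 P10 (green); filled points have an adjusted p under 0.05. All green points are open, between -0.88 (Npas4) and 0.54 (Nr4a1), and Arc at P10 (2.39) and Fos at P10 (2.22) are the highest points.

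Among animals without SP1, Nr4a2 differed between Cre-positive and Cre-negative animals of the Syn1Cre line and did not pass in the GFAPCre line. Over C57bl6J, Syn1Cre, Syn1CreNeg, GFAPCre and GFAPCreNeg, 2 of 10 members differed in edgeR's joint test, Nr4a2 (adjusted p = 1.77e-09) and Npas4 (adjusted p = 0.0201), beside 27.5% of all loci. The Npas4 call was lost with scaling by total insertions, with factors over all loci and counting each position once. Npas4 group means ran from 15.2 ± 7.02 (SD, n = 6) IPM in GFAPCreNeg to 26.8 ± 6.89 (n = 2) in C57bl6J, and their animals overlapped.

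In order of level, Nr4a2 had 156 ± 32.2 (SD, n = 2) IPM in C57bl6J, 142 ± 15.4 (n = 6) in Syn1Cre, 117 ± 65.9 (n = 3) in Frontflip_GFAPCre and 105 ± 20.3 (n = 6) in GFAPCre. Then came SP1 P10 at 93.1 ± 60.8 (n = 3), GFAPCreNeg at 92.3 ± 20.4 (n = 6), N2a at 88.0, SP1 P28 at 68.5 ± 18.9 (n = 4), Rbp4Cre_TRAP at 63.8 ± 45.96 (n = 4), Syn1CreNeg at 63.2 ± 14.1 (n = 6) and BrokenHeart at 31.8 ± 17.1 (n = 3). Neighbouring groups of animals in that order overlapped. N2a is 1 table, above the highest SP1 P28 animal (86.6), with an exact 95% Poisson interval of 68.7 to 111 that covers counting error only.

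**Figure D5:**
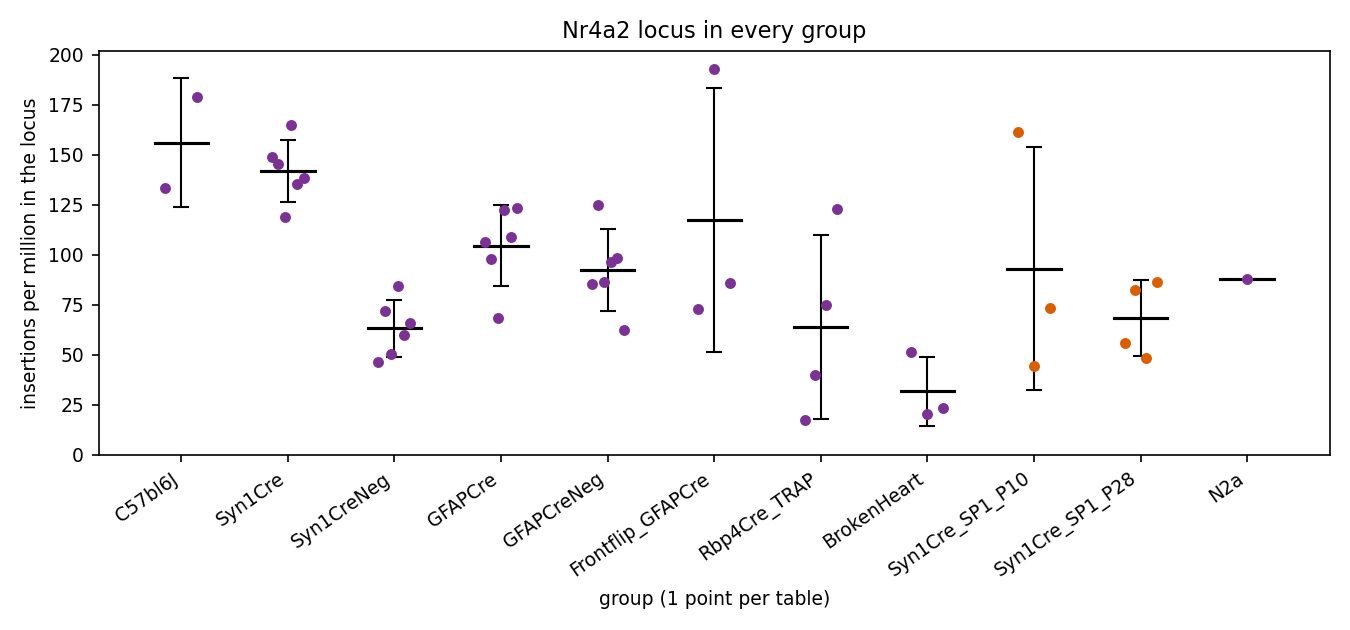
IPM at Nr4a2 (vertical axis) in 10 groups of animals and N2a (horizontal axis), 1 point per table, with the mean ± SD; SP1 groups are orange. Syn1Cre points (119 to 165) all lie above Syn1CreNeg points (46.5 to 84.5), while GFAPCre (68.3 to 123.3) and GFAPCreNeg (62.5 to 125) overlap.

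In Syn1Cre against Syn1CreNeg, 1 of 10 passed, Nr4a2, beside 17.2% of all loci (8.18% higher and 8.98% lower). Over gene bodies Npas4 also passed. The Syn1Cre animals ran from 119 to 165 IPM with a median of 142, the Syn1CreNeg animals from 46.5 to 84.5 with a median of 62.9. In edgeR the log2 fold change was 1.04 (SE 0.16, adjusted p = 1.14e-06), and it passed in 22 of 22 alternatives, from 0.87 to 1.18. Labels came in an earlier layout (animals 1 to 3) and a later one (animals 4 to 6): Nr4a2 stood at 138 against 56.2 within the earlier and 146 against 70.1 within the later. The 2 groups shared no pool, so Cre and pool cannot be told apart. Marker loci moved with this result: 4 of 8 neuron markers were higher in Syn1Cre and 6 of 7 astrocyte markers lower. Their part in the result was not tested. The uncharacterised LOC105244150, whose locus overlaps that of Nr4a2, rose by 0.94 (SE 0.17, edgeR adjusted p = 3.52e-05) and shares insertions with it.

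In GFAPCre against GFAPCreNeg, 0 of 10 passed (0 at an unadjusted p under 0.05, and 0 with DESeq2), beside 4.01% of all loci (1.27% higher and 2.74% lower). Nr4a2 was at 0.16 (SE 0.14, edgeR adjusted p = 0.583). The Nr4a2 difference between Cre-positive and Cre-negative animals was larger in the Syn1Cre line than in the GFAPCre line. The Cre-negative means were 63.2 IPM in Syn1CreNeg and 92.3 in GFAPCreNeg, and the Cre-positive means 142 in Syn1Cre and 105 in GFAPCre. The gap between the lines was 0.92 (log2, SE 0.21, edgeR adjusted p = 0.0174 for the interaction). Nr4a2 was the only one of the 10 members to pass, beside 0.494% of all loci (0.252% higher and 0.242% lower). Syn1Cre and Syn1CreNeg shared no pool, so Cre and pool cannot be told apart here. In Syn1Cre against GFAPCre, 0 of 10 passed (2 at an unadjusted p under 0.05, Fos at -0.32 and Nr4a2 at 0.39, and 0 with DESeq2), beside 1.43% of all loci (0.769% higher and 0.662% lower). In a simulation of that comparison, 99.5% of loci changed by 3-fold were recovered, again with only loci at or above the median count changed.

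Read from DNA instead of RNA, the Nr4a2 and Bdnf loci had fewer insertions. In BrokenHeart against C57bl6J, 2 of 10 passed, both lower, beside 7.71% of all loci (6.60% higher and 1.11% lower). Nr4a2 had 51.5, 20.4 and 23.5 IPM against 133 and 179, a log2 difference of -2.14 (SE 0.48, edgeR adjusted p = 0.000451). Bdnf had a mean of 32.9 ± 8.70 (SD, n = 3) against 112 ± 3.08 (n = 2), or -1.43 (SE 0.49, edgeR adjusted p = 0.0486). These rest on 6 and 7 BrokenHeart insertions, and neither assay nor depth nor virus can be told apart from the group. Without BrokenHeart animal 2 the Nr4a2 call was lost (edgeR adjusted p = 0.0909) and Fos passed as higher (2.03, adjusted p = 0.0358). The Bdnf call was lost when any 1 animal was left out, counting each position once (edgeR adjusted p = 0.0750) and over gene bodies (adjusted p = 0.0890). Under the last 2 settings Nr4a1 passed as higher (1.57 and 3.09, edgeR adjusted p = 0.0378 and 0.0129). Egr3 passed as lower with factors over all loci (-2.50, edgeR adjusted p = 0.0300). Higher calls were 85.6% of all calls, and 17.3% with factors over all loci.

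In Rbp4Cre_TRAP against Syn1Cre, 0 of 10 passed (3 at an unadjusted p under 0.05), beside 1.04% of all loci (0.518% higher and 0.523% lower). Fosb came closest, at 132 ± 47.6 (SD, n = 4) IPM against 56.7 ± 13.9 (n = 6), a log2 value of 1.32 (SE 0.38, edgeR adjusted p = 0.0571). Its animals did not overlap, but they held 22 insertions in all. With each position counted once it passed (2.14, adjusted p = 0.00062), and Nr4a2 passed as lower with DESeq2 (-1.56, adjusted p = 0.0415) and with factors over all loci (-1.88, adjusted p = 0.00127). In Frontflip_GFAPCre against GFAPCre, 0 of 10 passed (1 at an unadjusted p under 0.05, Fosb at 0.80), beside 1.31% of all loci (1.17% higher and 0.142% lower). In N2a, the members with the highest levels were Bdnf at 304 IPM (95% interval 267 to 344) and Junb at 112 (89.7 to 137), and Arc had 7.44 (2.73 to 16.2).

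Other genes of the pathway did not move as a block. Of 32 further activity-regulated loci, 14 were higher and 3 lower in SP1 P28 against Syn1Cre, where 27.0% of all loci were higher and 9.40% lower. At P10, 12 were higher and 2 lower, beside 23.9% and 4.12% of all loci. With factors over all loci these counts became 12 and 4 at P28 and 5 and 5 at P10. None of the 30 that could be tested was called between the ages. Their median log2 fold change was 0.42 at P28 and 0.70 at P10, and 0.08 and -0.15 with factors over all loci. Highest were Vgf, a secreted neuropeptide precursor, at 2.18 and 2.84, Jund, a Jun family protein, at 1.82 and 2.51, and Nfil3, a bZIP repressor, at 1.73 and 2.89. Nr4a3, the third Nr4a receptor, was lower like Nr4a2, at -0.88 and -1.89, as was Inhba, the activin subunit, at -0.82 and -1.24. Ptgs2, which makes prostaglandins, was lower at P28, at -1.47. In Syn1Cre against Syn1CreNeg, 5 of these 32 were higher and 1 lower, beside 8.18% and 8.98% of all loci, and 2 and 1 with DESeq2. Gadd45g, a demethylation-linked stress gene, was at 1.52 and Pcsk1, a prohormone convertase, at 1.46, calls that DESeq2 did not make. Also called were Egr4, another Egr factor, at 0.77 and Crem, a CREB relative, at -0.50. In BrokenHeart against C57bl6J, 2 were higher, the phosphatase Dusp6 (1.94) and the synaptic scaffold Homer1 (1.02), beside 6.60% of all loci. The Homer1 call was lost under each of the 3 other scalings. None passed in Syn1Cre against GFAPCre, GFAPCre against GFAPCreNeg, Rbp4Cre_TRAP against Syn1Cre or Frontflip_GFAPCre against GFAPCre.

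Of 18 upstream signalling loci, 5 were higher and 3 lower at P28 against Syn1Cre, beside 27.0% and 9.40% of all loci, so the higher count is near the share over all loci. At P10, 5 were higher and 4 lower, beside 23.9% and 4.12%. With factors over all loci and with DESeq2 the counts turned to 4 higher and 9 lower at P28 and 2 and 9 at P10. At P28 the SRF partner Elk1 (1.62), the kinase Mapk3 (1.48) and the acetyltransferase Ep300 (1.46) were the highest, and the kinase Camk4 (-0.87), the factor Mef2c (-0.62) and the calcium channel Cacna1c (-0.52) the lowest. At P10 the highest were Mef2d (1.67), Ep300 (1.58) and Srf (1.5), of which the last 2 lost their calls under both of those scalings, and the lowest the NMDA receptor subunit Grin1 (-2.77), Camk4 (-1.5) and Cacna1d (-0.76). Between the ages, 1 of 18 passed: Rps6ka5, a kinase that phosphorylates histone H3 and CREB, fell from 417 IPM at P10 to 193 at P28 (-0.89, SE 0.24, edgeR adjusted p = 0.0266). Ntrk2, the receptor for the Bdnf protein, was lower in Syn1Cre than in Syn1CreNeg (-0.62, SE 0.12, edgeR adjusted p = 4.92e-05) and in GFAPCre than in GFAPCreNeg (-0.41, SE 0.10, adjusted p = 0.00552). In the same 2 comparisons 6 and 3 of 7 astrocyte markers were lower, and their part was not tested.

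For Bdnf, which was called in 3 locus comparisons like Nr4a2 and had the higher mean level, the loci with the most similar pattern over 46 animals, among 8143 other loci (at least 200 kb away and with at least 10 insertions per animal on average), were Pikfyve (r = 0.89), Ubr3 (r = 0.88) and Olfr750 (r = 0.87). These correlations are of log2 CPM scaled by TMM and are a description: the points share assay and depth, and without the 3 Frontflip_GFAPCreNeg tables they were 0.85, 0.82 and 0.80 over 43 animals.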

How the data were processed

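Each table lists insertions, 1 per row, with position and read count. Insertion positions and read counts are the authors' deposited values, and the submitters' processing notes name build mm10 and the tools Bowtie2 and Novoalign, without versions or roles. The labels list 194 sequencing pools, which the tables merge into 46 animals and N2a. The members and gene lists were chosen with earlier results of these data known.

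Rows were counted in each protein-coding locus (RefSeq gene body with 10 kb on each side) and within 1 kb of each start, both ends where no strand was listed. BrokenHeart positions were moved by -1 base to meet the other tables. Loci with at least 10 insertions in a comparison were tested with edgeR 4.0.16 (quasi-likelihood, R 4.3.3) on counts with the table total as library size, adjusted by Benjamini-Hochberg over all loci. The fits take only the groups compared, without replicate number as a block: samples sharing a number correlated between -0.153 and 0.167. TMM factors were taken over loci with at least 5 insertions expected in the shallowest table. That choice was made after first results and after a test on simulated counts. Recovery in that test is given for this choice alone, and results with factors over all loci are also reported. In that test 61% of 200 loci changed by 3-fold were recovered in SP1 P28 against P10, 92.5% in SP1 P28 and 44% in SP1 P10 against Syn1Cre. Changed loci were drawn from those at or above the median count. All loci shared a common spread between animals, so recovery of sparse members is not given.

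Alternatives were scaling by totals, factors over all loci, DESeq2 1.42.0, other filters, distinct positions, at least 2 reads, gene bodies, 2 kb windows, 1 thinning to equal depth, the replicate block and leaving out each animal. Named genes are the 10 members, up to 3 highest and 3 lowest called loci per list, and the 3 loci most like 1 member. Intervals cover counting error only.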

Additional observations from a re-analysis of the deposited data

Results flagged for a closer look

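In 6 of 60 sets of 1 member in 1 group of 4 to 6 animals, 1 animal lay far from the rest of its group for a member. How often chance gives this with counts from tables of unequal depth was not tested. Fos in Rbp4Cre_TRAP animal 3 was 99.8 IPM, from 4 insertions, with the others at 35.1 to 41.0. Fosb in SP1 P28 animal 2 was 138, with the others at 77.6 to 83.1. Arc in SP1 P28 animal 4, the deepest SP1 table, was 29.4, below the 45.9 to 48.6 of the others and still above every Syn1Cre animal. Npas4 in SP1 P28 animal 1 was 25.9, from 6 insertions, with the others at 18.2 to 19. Npas4 in Syn1CreNeg animal 3 was 42.0, from 5 insertions, with the others at 9.30 to 20.5. Bdnf in Syn1CreNeg animal 1 was 140, from 15 insertions, with the others at 70.1 to 92.4.

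The Nr4a2 difference between Cre-positive and Cre-negative animals differed between the Syn1Cre and GFAPCre lines by 0.92 on the log2 scale (edgeR adjusted p = 0.0174 for the interaction). Nr4a2 was higher in Cre-positive animals by 1.04 in the Syn1Cre line and by 0.16 in the GFAPCre line. Syn1Cre and Syn1CreNeg shared no pool and differed in depth (443158 to 1364948 against 97519 to 556145 insertions). Cre, pool and depth cannot be told apart there.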

How the results depend on the processing

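Of the 10 members, the count that passed in SP1 P28 against Syn1Cre (7, beside 36.4% of all loci) became 4 with DESeq2 (beside 31.1%). It became 4 with at least 2 reads, 3 after thinning, and 5 to 8 when 1 animal was left out. For most settings in this section the share of all loci is not given, so the member counts are not shown to be particular to the members. SP1 P10 against Syn1Cre (4) gave 2 with at least 2 reads and 2 to 4 with 1 animal left out (2 without P10 animal 3). With factors over all loci tested, added after seeing the data, and with DESeq2, Bdnf at P10 turned to -0.13 and -0.078. Syn1Cre against Syn1CreNeg (1) gave 2 over gene bodies and 1 with any animal left out. BrokenHeart against C57bl6J (2) gave 1 with no low-count filter, with at least 2 reads and with any animal left out. Rbp4Cre_TRAP against Syn1Cre (0) gave 1 with factors over all loci (beside 3.57% of all loci), DESeq2 (beside 0.985%) or distinct positions. It gave 0 to 1 with 1 animal left out (1 without Syn1Cre animal 1 or 2). Frontflip_GFAPCre against GFAPCre (0) gave 1 with at least 2 reads. The start windows gave 1 with factors over all loci, 0 with distinct positions, 5 with 2 kb windows and 1 to 2 with 1 animal left out at P28 (2), and 0, 4 and 0 to 1 for the last 3 at P10 (1). The joint test (2) gave 1 with scaling by totals, with factors over all loci and with distinct positions. No member passed between the ages in 18 alternatives, in Syn1Cre against GFAPCre in 22, or in GFAPCre against GFAPCreNeg in 22. Between the ages some members changed sign without passing, as Fosb from -0.45 to 1.07. Over all loci, the 266 calls between the ages became 52 with distinct positions, 162 with DESeq2, 155 over gene bodies, 170 after thinning, 92 in animals sharing pools, and 6 to 448 with 1 animal left out (6 without P10 animal 3).

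Replicate numbers do not pair these animals. With the replicate block, 6 members passed in SP1 P28 against Syn1Cre, 3 in SP1 P10 against Syn1Cre, 1 in BrokenHeart against C57bl6J, 1 in Frontflip_GFAPCre against GFAPCre and 1 in Syn1Cre against Syn1CreNeg, and 0 between the ages, where all-locus calls rose to 475. For the other comparisons the share of all loci called with the block is not given here. The causes were not tested. Depth limits Npas4, Egr3 and Arc most in the SP1, BrokenHeart and Rbp4Cre_TRAP tables, where a member can rest on fewer than 10 insertions.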

Other observations

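Each member can also be described by how its insertions spread over positions. The Arc locus was the most concentrated in SP1 animals, with 6 positions and 98.3% of insertions at the top 5, against 70.7% at the top 5 of 19 positions in the unfused animals. Bdnf went from 18.4% at its top 5 positions in unfused animals to 47.7% in SP1 animals, and Fos from 49% to 65.2%. Nr4a2 was spread in both, at 16.6% and 21.9%. The SP1 tables are shallower, and these shares were not corrected for it.

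Orientation differed between positions. At the top Fos position 140 insertions lay on the plus strand and 1 on the minus strand over all tables, and at the top Junb position 1 and 69. At the top Bdnf position the split was 54 and 45. The top Nr4a1 position, chr15:101249077, had 14 insertions in 4 of 4 SP1 P28 animals and 0 in 3 SP1 P10 animals, whose tables are smaller. It was picked as the most hit in the pooled SP1 tables, so this contrast of the ages is a description only.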
